A study of Mus musculus with 12 samples.

Results

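The genes followed here in mouse alveolar macrophages after ozone were 9 that are commonly used to recognise macrophages of monocyte origin, namely Ccr2, Cx3cr1, Csf1r, Ly6c2, Plac8, Maf, Fn1, Vcan and F13a1. They were chosen by gene symbol, and all 9 were found among the 55291 genes of the deposited expression table. RNA was measured in alveolar macrophages obtained by flow sorting from the lungs of female C57BL/6NJ mice aged 8 to 11 weeks. The filtered-air group held 6 mice that had breathed clean air, and the ozone group held 6 mice exposed to 0.8 ppm ozone for 4 h on each of 4 successive days; lungs were taken 3 days after the last exposure. Cells were sorted in 2 batches, each with 3 mice of either group, and the labels name no other allele or agent in either group.

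Alveolar macrophages are seeded before or around birth and maintain themselves in the airspaces with little input from blood. After lung injury, blood monocytes can leave the circulation by way of the chemokine receptor CCR2, enter the airspaces and turn into macrophages that for a time keep part of a monocyte programme. Several of the genes that mark this programme are not exclusive to it, since CX3CR1 is also carried by natural killer cells and Ly6C proteins by some T cells.

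Each value is a variance-stabilized expression level on a log2 scale. Within each gene the 6 filtered-air mice averaged 0, so a value is a distance from the filtered-air mean and does not show how abundant the gene was. Total reads per mouse are unknown, and on such a scale the differences of genes with few reads are compressed. Differences were tested with limma over the 19633 genes with values above the lowest shared value in at least 6 of the 12 mice, with sort batch as a covariate and Benjamini-Hochberg adjustment over all of these genes. All 9 genes passed that filter, with values above the lowest shared value in all 12 mice.

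Only Csf1r passed an adjusted p of 0.05 among the 9 genes, and it was higher after ozone. The other 8 did not pass, which does not show that they were unchanged. Of their differences 4 were above 0 and 4 below. The share of differences above 0 was 48% over all genes. Over all genes, 4.25% passed the same threshold, 2.41% as higher after ozone and 1.84% as lower. The median difference of the 9 genes was 0.0042, beside -0.0033 over all genes tested. In none of the 9 were the ozone and filtered-air values fully separated, which was the case for 3.53% of all genes. In RNA from a sorted pool, fewer cells of a type and less RNA per cell cannot be told apart.

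**Figure D1:**
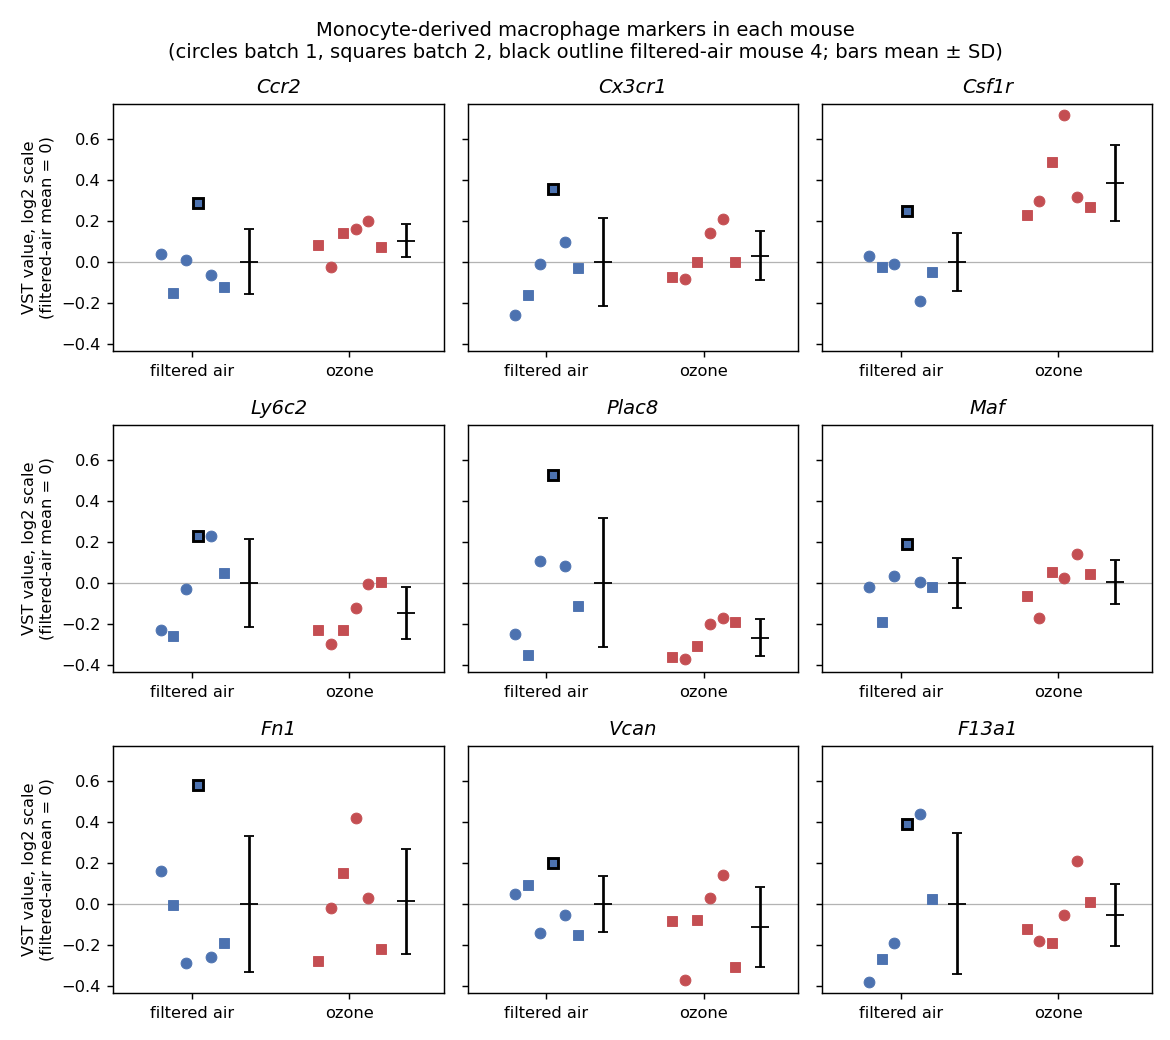
Deposited values (log2 scale, filtered-air mean set to 0) of the 9 genes in each of the 12 mice, with circles for sort batch 1, squares for sort batch 2, a black outline for filtered-air mouse 4 and bars for the mean ± SD of each group. Csf1r is the only gene with 5 of 6 ozone mice above every filtered-air mouse; filtered-air mouse 4 is the highest of its group in 7 of the 9 genes.

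The receptor genes came first in the comparison. Csf1r encodes the receptor for CSF1 and IL-34, the growth factors on which monocytes and most macrophages depend. Its values ran from -0.19 to 0.25 in filtered air with a median of -0.016, and from 0.23 to 0.72 after ozone with a median of 0.31. Of the 6 ozone mice, 5 lay above every filtered-air mouse, and the exception was exceeded by filtered-air mouse 4 alone. The difference was 0.39 (SE 0.0846, 95% interval 0.21 to 0.57; limma, adjusted p = 0.0181). Csf1r kept an adjusted p under 0.05 whichever single mouse was left out, with adjusted p between 0.00767 and 0.0493 over the 12 limma fits. Within the sort batches the difference was 0.50 in batch 1 and 0.27 in batch 2, where limma with 3 mice per group gave adjusted p = 0.110 and 0.446 and called 0.458% and 0% of all genes. After quantile normalization the limma adjusted p was 0.0826, with a difference of 0.33, and 0.871% of all genes passed. On the annotated transcript, 17.7% of the 50-base windows of Csf1r also occur on the opposite strand in the overlapping gene Hmgxb3, whose own difference was 0.033 (limma, adjusted p = 0.732).

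Ccr2, the receptor that lets monocytes follow CCL2 out of the marrow and into inflamed tissue (GRCm38 chr9:124101950-124113557, plus strand), ran from -0.15 to 0.29 in filtered air with a median of -0.027. After ozone its values ran from -0.026 to 0.20 with a median of 0.11. The groups overlapped. Filtered-air mouse 4 had the highest value of all 12 mice, and ozone mouse 2 (-0.026) lay below filtered-air mice 1 (0.038) and 3 (0.0085) as well. The difference was 0.11 (SE 0.0667, 95% interval -0.037 to 0.25; limma, adjusted p = 0.483). Without filtered-air mouse 4 it was 0.17 (95% interval 0.067 to 0.27; limma, adjusted p = 0.0699), and 5 of the 6 ozone mice then lay above all remaining filtered-air mice.

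Cx3cr1, the fractalkine receptor of patrolling monocytes and of many tissue macrophages (chr9:119901616-120069879, minus strand), ran from -0.26 to 0.36 in filtered air and from -0.084 to 0.21 after ozone, with medians of -0.019 and 0.00033. The ozone values lay wholly inside the filtered-air range. The difference was 0.033 (95% interval -0.16 to 0.22; limma, adjusted p = 0.907).

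The ligands and partners of the marker genes gave 2 changes, both downward, among 13 genes. Itga4, the alpha chain of the integrin VLA-4 that binds fibronectin and VCAM-1, fell by 0.33 (SE 0.0637; limma, adjusted p = 0.0094). Its filtered-air values ran from -0.23 to 0.18 and its ozone values from -0.48 to -0.24, so that all 6 ozone mice lay below all 6 filtered-air mice. Tlr2, a pattern-recognition receptor that can respond to versican, fell by 0.26 (SE 0.0593; limma, adjusted p = 0.0225), with 5 of 6 ozone mice below every filtered-air mouse; when mice were left out in turn, its adjusted p rose above 0.05 in 4 of 12 fits. After quantile normalization neither was called (limma, adjusted p = 0.117 for Itga4 and 0.168 for Tlr2). The ligands did not pass the test. Csf1, a ligand of the CSF1 receptor, differed by -0.18 (limma, adjusted p = 0.281) and Il34, the other ligand, by 0.033 (limma, adjusted p = 0.859). The CCR2 ligands Ccl2, Ccl7 and Ccl12 differed by -0.065, 0.058 and 0.016, and Cx3cl1, which encodes fractalkine, by -0.15 (limma, adjusted p = 0.236). The median over the 13 genes was -0.023.

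Among the surface and cytoplasmic markers of the classical monocyte, Ly6c2 encodes a form of Ly6C, the antigen that separates inflammatory from patrolling monocytes in the mouse. It lies at GRCm38 chr15:75108158-75111970 on the minus strand, on the same chromosome and strand as its near copy Ly6c1 at chr15:75044018-75048830. The first 100 coding bases of both genes (GENCODE M21) are shown because they bear on how separately the pair can be measured; capitals mark the 6 positions that differ.
Ly6c2: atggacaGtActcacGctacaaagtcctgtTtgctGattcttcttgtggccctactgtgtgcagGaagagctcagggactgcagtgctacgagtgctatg
Ly6c1: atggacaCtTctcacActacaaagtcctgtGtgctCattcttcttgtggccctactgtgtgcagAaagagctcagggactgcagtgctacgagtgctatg
Over the 396 coding bases the genes differ at 9 positions (97.7% identity), and 33% of the 50-base windows of the Ly6c2 transcript also occur in another annotated gene. How the authors assigned such reads is not given in the sources used here, so the split between the genes is uncertain.

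Ly6c2 ran from -0.26 to 0.23 in filtered air with a median of 0.011, and from -0.30 to 0.0028 after ozone with a median of -0.17. The groups overlapped, with 1 ozone mouse below every filtered-air mouse. The difference was -0.15 (95% interval -0.34 to 0.045; limma, adjusted p = 0.462). Ly6c1 differed by -0.12 (limma, adjusted p = 0.513).

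Plac8, a small cysteine-rich protein abundant in monocytes and other circulating leukocytes (chr5:100553725-100572245, minus strand), had the lowest difference of the 9 genes. It ran from -0.35 to 0.53 in filtered air with a median of -0.015, and from -0.37 to -0.17 after ozone with a median of -0.25. All 6 ozone mice were below 0, in a narrow band, but filtered-air mice 1 and 2 lay in the same range. The difference was -0.27 (SE 0.116, 95% interval -0.51 to -0.018) and did not pass adjustment (limma, unadjusted p = 0.0376, adjusted p = 0.258). Without filtered-air mouse 4 it was -0.15 (95% interval -0.31 to 0.013). Plac8 and Csf1r were the 2 of 9 genes with an unadjusted p under 0.05 in limma, against 16.7% of all genes.

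F13a1, the A subunit of coagulation factor XIII that monocytes and some tissue macrophages make (chr13:36867178-37050244, minus strand), ran from -0.38 to 0.44 in filtered air and from -0.19 to 0.21 after ozone, with medians of -0.085 and -0.087. The ozone values again fell inside the filtered-air range. The difference was -0.054 (95% interval -0.34 to 0.23; limma, adjusted p = 0.896).

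Maf, which encodes a basic leucine-zipper transcription factor of mature tissue macrophages (chr8:115682942-115707794, minus strand), ran from -0.19 to 0.19 in filtered air and from -0.17 to 0.14 after ozone. The ozone values lay inside the filtered-air range. The difference was 0.0042 (SE 0.0626, 95% interval -0.13 to 0.14; limma, adjusted p = 0.986), which gave Maf the narrowest interval of the 9 genes.

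The remaining pair encodes matrix proteins that monocytes and recruited macrophages secrete. Fn1, fibronectin, a ligand of the integrin that Itga4 helps to form (chr1:71585520-71653200, minus strand), ran from -0.29 to 0.58 in filtered air and from -0.28 to 0.42 after ozone, with medians of -0.10 and 0.0031. It was the most variable of the 9 genes after ozone, with an SD of 0.255 over 6 mice, and its difference of 0.014 had the widest interval (-0.30 to 0.33; limma, adjusted p = 0.979). In sort batch 1 the Fn1 difference was 0.27 and in batch 2 it was -0.24. The difference between the batches was -0.51 (SE 0.27) and did not pass the interaction test (limma, unadjusted p = 0.0784, the smallest of the 9 genes). Vcan, the large proteoglycan versican (chr13:89655312-89742509, minus strand), ran from -0.15 to 0.20 in filtered air and from -0.37 to 0.14 after ozone. Its lowest values belonged to ozone mice 2 and 6, the only ozone mice below every filtered-air mouse. The difference was -0.11 (95% interval -0.30 to 0.075; limma, adjusted p = 0.598).

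No interaction between ozone and sort batch was called for any of the 9 genes, and none had an unadjusted limma p under 0.05 for it, against 2.6% of all genes. With an RNA integrity covariate 2 genes, Csf1r and Fn1, had an unadjusted limma p under 0.05 for the interaction (smallest 0.00781, for Fn1) and none was called. Fn1 also did without filtered-air mouse 1, filtered-air mouse 6 or ozone mouse 3 (0.0314, 0.0235 and 0.0371), and Vcan without ozone mouse 2 (0.0316).

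**Figure D2:**
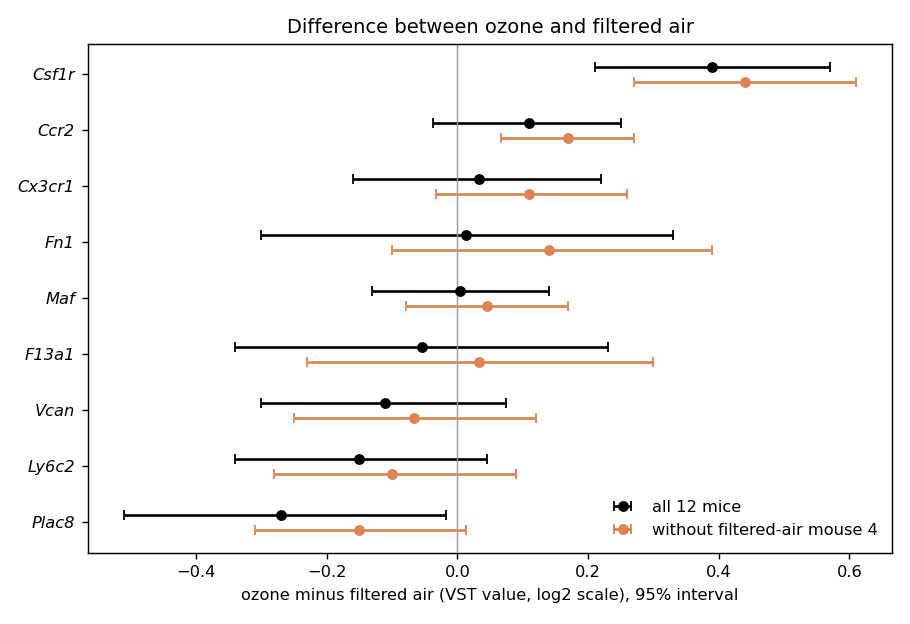
Difference between ozone and filtered air (log2 scale) for each of the 9 genes with its 95% interval, from all 12 mice in black and without filtered-air mouse 4 in orange. With all mice, the intervals of Csf1r (0.21 to 0.57) and Plac8 (-0.51 to -0.018) leave out 0; without mouse 4, those of Csf1r and Ccr2 (0.067 to 0.27) do.

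Filtered-air mouse 4 stood high in most of these genes. It was the highest filtered-air mouse in 7 of the 9, compared with 18.8% of all genes tested. The mean of the 9 genes was 0.33 in this mouse, and the next filtered-air mouse had 0.032. The SD of the filtered-air group was larger than that of the ozone group in 7 of the 9 genes, against 48.6% of all genes, and still in 5 of the 9 without this mouse, against 45.1%. No filtered-air value of the 9 genes met Dixon's criterion for an outlier, and the largest ratio of a highest mouse was 0.568, for Ccr2. The same mouse had the highest mean among filtered-air mice for 12 classical monocyte markers (0.43, next 0.045), for 8 neutrophil markers (0.26, next 0.04), for 6 B cell markers (0.35, next 0.038) and for 7 alveolar epithelial markers (0.32, next 0.20). It was highest for 5 of the 7 lists of other cell types, and for the patrolling monocyte (0.18, next 0.049) and the monocyte-derived and interstitial list (0.17, next 0.079). For the mean of 22 resident alveolar macrophage markers it was the lowest filtered-air mouse (-0.083). Among those markers its value was -0.95 for Marco and -0.32 for Fabp1, but 0.20 for Car4 and 0.074 for Chil3. How far the low mean rests on Marco was not tested. This mouse also had the lowest RNA integrity number of the 12, 8.9. What part these play in the values of the 9 genes was not tested. Without this mouse the median difference of the 9 genes was 0.046, and 6 rather than 5 of the differences were above 0.

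The other lists of marker genes set these results in context. All 22 resident alveolar macrophage markers had values above the shared minimum in every mouse, but so did all 8 T and NK cell markers and all 6 B cell markers, and since the table keeps no abundance the purity of the sort cannot be read from it. Of the 12 classical monocyte genes, 1 passed the threshold as lower and none as higher, with 9 differences below 0 and a median of -0.092. The gene that fell was S100a4, a calcium-binding protein of monocytes and motile cells, with values of -0.48 to 0.86 in filtered air and -0.85 to -0.37 after ozone. The difference was -0.70 (SE 0.187; limma, adjusted p = 0.0496), and it was no longer past the threshold in 8 of 12 fits with a mouse removed. None of the 10 patrolling monocyte genes passed the limma test, and 2 had an unadjusted p under 0.05.

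Of 20 genes of monocyte-derived and interstitial macrophages, 3 passed the threshold as higher and none as lower, with 14 differences above 0 and a median of 0.15. Spp1, which encodes osteopontin, rose by 0.71 (SE 0.081; limma, adjusted p = 0.000428). Trem2, a lipid-sensing receptor, rose by 0.60 (SE 0.0751; limma, adjusted p = 0.000811). Cd81, a tetraspanin, rose by 0.30 (SE 0.0469; limma, adjusted p = 0.00291). In all 3 the 6 ozone mice lay above the 6 filtered-air mice, which none of the 9 genes did. With a mean-variance trend the limma adjusted p of Spp1 was 0.071, while Trem2 and Cd81 stayed under 0.05 (0.0263 and 0.0194). The mean of the 20 genes lay between -0.15 and 0.17 in filtered air and between 0.031 and 0.28 after ozone.

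Of the 22 resident alveolar macrophage genes, 2 rose and 2 fell, with a median of -0.052. Car4, a carbonic anhydrase, rose by 0.32 (SE 0.0836; limma, adjusted p = 0.046), and Chil3, a chitinase-like secreted protein, rose by 0.25 (SE 0.0604; limma, adjusted p = 0.032). Krt79, a keratin, fell by 0.35 (SE 0.0762; limma, adjusted p = 0.0177), and Ear1, an eosinophil-associated ribonuclease, fell by 0.28 (SE 0.0705; limma, adjusted p = 0.0358). With a mouse removed, Car4 and Ear1 were each no longer past the threshold in 8 of 12 fits, and Chil3 in 7. After quantile normalization none of the 4 was called (limma, adjusted p 0.123 to 0.219).

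Markers of cells other than monocytes and macrophages formed 7 lists of 52 genes in all, of which 50 were tested and 1 was called. That gene was Cxcr2, a receptor for neutrophil-attracting chemokines, which rose by 0.79 (SE 0.0909; limma, adjusted p = 0.000451) with no overlap between the groups. With a mean-variance trend its limma adjusted p was 0.159, and within the batches it was 0.0502 (difference 0.68) and 0.074 (difference 0.89). In the neutrophil list, Ly6g and Camp lay above the shared minimum in 1 and 0 mice and were not tested. The 8 neutrophil genes tested, Cxcr2 among them, all lay above it in every mouse. The mean of these 8 genes ran from -0.15 to 0.26 in filtered air and from 0.02 to 0.18 after ozone. All 6 B cell genes had differences below 0, with a median of -0.19 and no call in limma, and 4 had an unadjusted p under 0.05. The means of the B cell genes ran from -0.24 to 0.35 in filtered air and from -0.29 to -0.12 after ozone, with a difference in the same direction as that of Plac8. Across mice, Plac8 and the B cell mean had r = 0.89 (exact permutation p = 0.017, adjusted 0.0965; rho = 0.64, p = 0.064, adjusted 0.21), and r was 0.46 without the 2 mice farthest from the median of Plac8. Plac8 also had r = 0.88 with each of the classical monocyte, patrolling monocyte and neutrophil means (exact permutation, adjusted p = 0.111, 0.167 and 0.0667) and 0.84 with the alveolar epithelial mean (adjusted p = 0.0965). The r of Plac8 without filtered-air mouse 4 was 0.55, 0.62, 0.59 and 0.71 with these 4 means and 0.64 with the B cell mean.

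**Figure D3:**
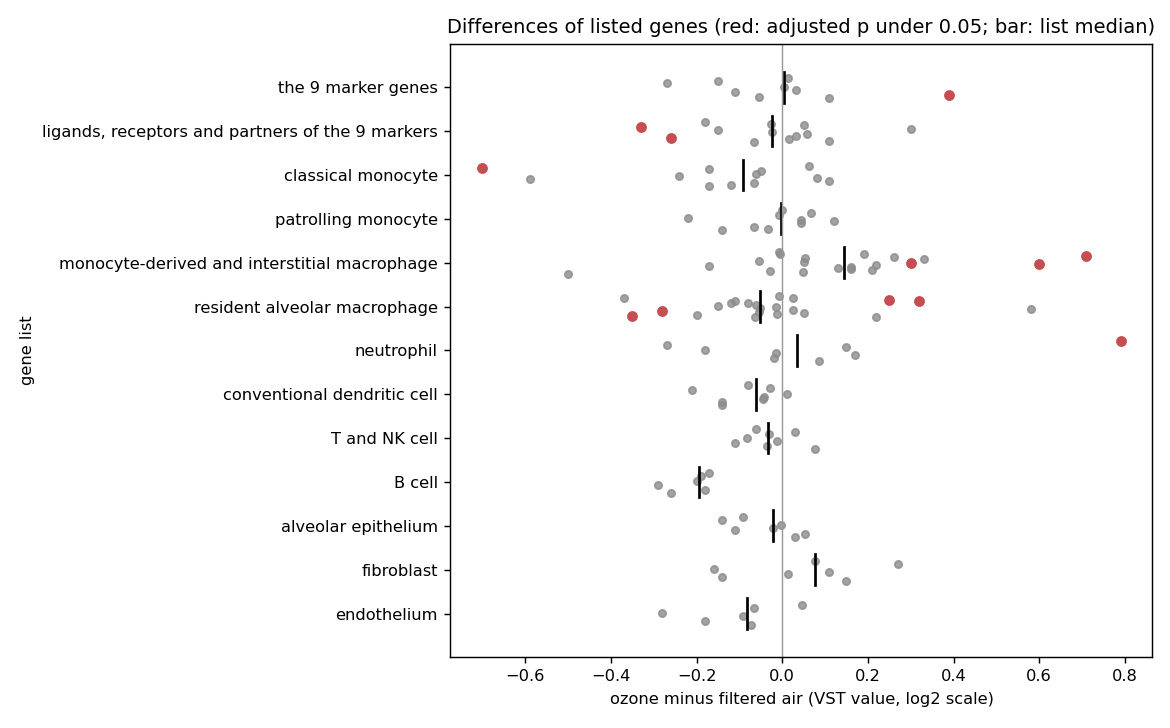
Differences between ozone and filtered air (log2 scale, horizontal axis) of every tested gene in the 9 markers and 12 other lists, 1 point per gene, red where the limma adjusted p is under 0.05, with a bar at each list's median. The 9 markers centre on 0.0042 with Csf1r alone in red at 0.39, while the monocyte-derived and interstitial list centres on 0.15 with 3 genes in red.

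The correlations between the 9 genes across mice ranged widely. After the means of group and sort batch were removed, 35 of the 36 pairwise correlations across the 12 mice were above 0, with a median Pearson r of 0.55 and a range from -0.018 to 0.93. Without filtered-air mouse 4 the median was 0.27, the range ran from -0.50 to 0.91, and 25 pairs were above 0. Each correlation was tested by exact permutation of mice within group and batch (two-sided, 1296 orders, smallest possible p = 0.000772), with adjustment over the 36 pairs. Pearson's r passed for 7 pairs, 6 of them among the 10 pairs of Ly6c2, F13a1, Cx3cr1, Plac8 and Maf. The other 4 of those 10 had exact permutation adjusted p of 0.0583 to 0.099. Ccr2 had r = 0.86 with Maf (exact permutation, adjusted p = 0.0521), 0.79 with Plac8, 0.71 with Cx3cr1, 0.69 with Fn1, 0.65 with Vcan and 0.62 with Csf1r, and none of these pairs passed. The Ccr2 correlations without filtered-air mouse 4 were 0.81 with Maf, 0.58 with Vcan, 0.31 with Plac8, 0.22 with Cx3cr1, 0.24 with Fn1 and 0.35 with Csf1r.

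The strongest pair was Ly6c2 and F13a1, with r = 0.93 (exact permutation p = 0.00154, adjusted 0.0324) and Spearman's rho = 0.92 (p = 0.00154, adjusted 0.0278). It was 0.91 without the 2 mice farthest from the median of Ly6c2. Cx3cr1 paired with Plac8 at r = 0.91 (exact permutation p = 0.00463, adjusted 0.0324; rho = 0.83, p = 0.00694, adjusted 0.0667), which was 0.65 without the 2 farthest mice. Maf, which did not differ with ozone beyond the spread between mice, paired with Plac8 at r = 0.81 (exact permutation p = 0.00231, adjusted 0.0324; rho = 0.81, p = 0.00154, adjusted 0.0278) and 0.83 without the 2 farthest mice.

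Csf1r had no pair past the threshold with these 5 genes. Its r with the 5 genes was 0.037 for Ly6c2, -0.018 for F13a1, 0.42 for Cx3cr1 and 0.39 for both Plac8 and Maf, and it was 0.89 with Fn1 (exact permutation p = 0.0054, adjusted 0.0324; rho = 0.79, p = 0.00772, adjusted 0.0667). The Csf1r and Fn1 correlation was 0.76 without the 2 mice farthest from the median of Csf1r, filtered-air mouse 4 and ozone mouse 4. Csf1r varied between mice together with Fn1, whose group difference was 0.014, while the group difference of Csf1r was 0.39. Without filtered-air mouse 4 none of the 7 pairs passed adjustment in the exact permutation test, which then had 432 orders and a smallest possible p of 0.00231; their r then lay between 0.61 and 0.91.

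**Figure D4:**
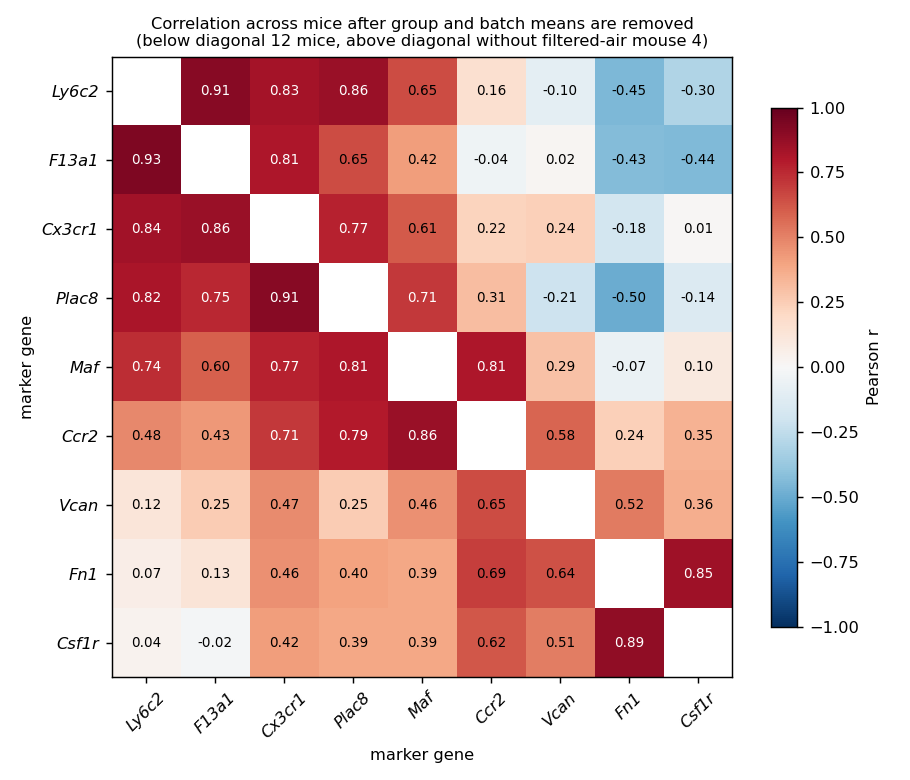
Pearson r between each pair of the 9 genes across mice after the group and batch means were removed, from all 12 mice below the diagonal and without filtered-air mouse 4 above it (colour scale from -1 to 1). Ly6c2, F13a1, Cx3cr1, Plac8 and Maf have values of 0.60 to 0.93 with each other and Fn1 and Csf1r 0.89 (below the diagonal), and Ccr2 has 0.62 to 0.86 with Csf1r, Vcan, Fn1, Cx3cr1, Plac8 and Maf (0.22 to 0.81 above the diagonal).

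The 9 genes were also set against the mean of each other list. Over 108 combinations of a gene and the mean of a list, 10 had an adjusted p under 0.05 by Pearson's r, all with Ly6c2, F13a1, Cx3cr1 or Plac8. None of the 10 did without filtered-air mouse 4 (exact permutation, adjusted p 0.125 to 0.2). With 432 orders the smallest possible p was then 0.00231, too large for a single combination to pass adjustment over 108. The loss of these calls therefore cannot show that they depend on that mouse. Ly6c2 followed the mean of 8 T and NK cell genes with r = 0.98 (exact permutation p = 0.000772, the smallest possible; adjusted 0.0417) and rho = 0.98 (p = 0.000772, adjusted 0.0417), and r was 0.97 without the 2 farthest mice. It followed the mean of 8 conventional dendritic cell genes with r = 0.96 (exact permutation p = 0.000772, adjusted 0.0417; rho = 0.97, adjusted 0.0417). F13a1 had r = 0.91 with the T and NK cell genes (exact permutation p = 0.00154, adjusted 0.0417; rho = 0.92, adjusted 0.0417) and 0.86 with the dendritic cell genes (rho = 0.90, adjusted 0.0417). Cx3cr1 had r = 0.80 with the T and NK cell genes (exact permutation p = 0.00309, adjusted 0.0417; rho = 0.84, adjusted 0.0521) and 0.83 with the dendritic cell genes (rho = 0.83, adjusted 0.0833). The highest r of Cx3cr1 was 0.92, with the monocyte-derived and interstitial list (exact permutation p = 0.00772, adjusted 0.0641; rho = 0.94, adjusted 0.1), and it was 0.90 without filtered-air mouse 4. F13a1 had r = 0.83 with that list (exact permutation p = 0.0054, adjusted 0.053; rho = 0.83, adjusted 0.05). The other combinations past the threshold by Pearson's r were Plac8 with dendritic cell (r = 0.80) and endothelial genes (r = 0.71), Ly6c2 with the monocyte-derived and interstitial list (r = 0.81), and F13a1 with neutrophil genes (r = 0.63). By rank these 4 had adjusted exact permutation p of 0.1, 0.0521, 0.0521 and 0.1. The last rested on 2 mice, since r was 0.10 without filtered-air mice 4 and 5. For Csf1r the r with the T and NK cell genes was 0.0067. The means of the T and NK cell genes ran from -0.27 to 0.25 in filtered air and from -0.23 to 0.20 after ozone, and none of the 8 genes had an unadjusted limma p under 0.05 for ozone. The part of these cells in the values of Ly6c2, F13a1 and Cx3cr1 was not tested. Without filtered-air mouse 4 the Ly6c2 correlation with the T and NK cell genes stayed at 0.98 (exact permutation p = 0.00231, adjusted 0.125).

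**Figure D5:**
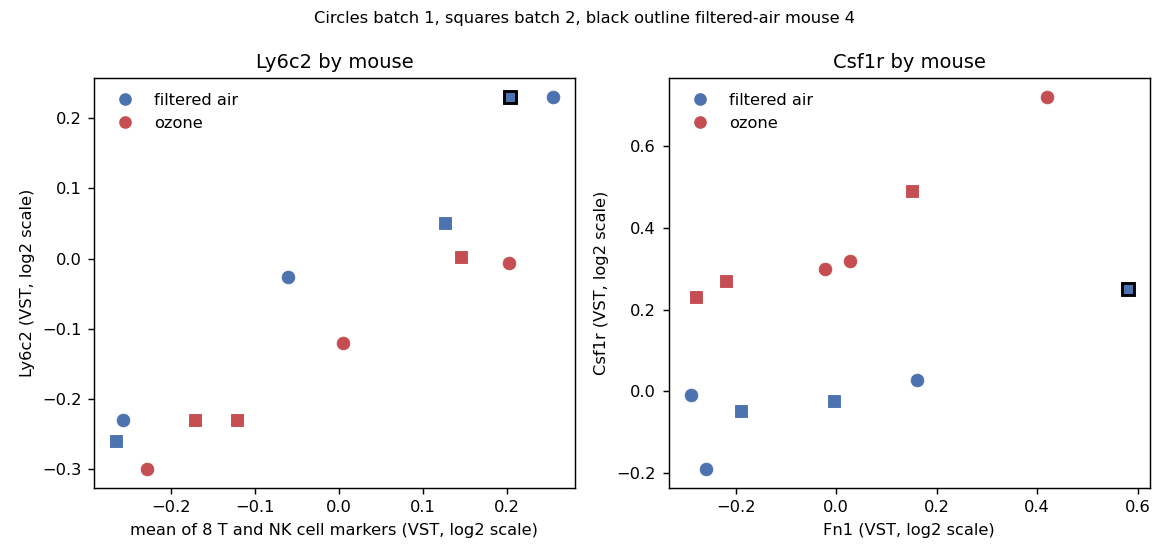
Left, Ly6c2 in each mouse against the mean of 8 T and NK cell genes; right, Csf1r against Fn1 (all log2 scale; blue filtered air, red ozone, circles batch 1, squares batch 2, black outline filtered-air mouse 4). Ly6c2 rises with the T and NK cell mean in both groups (r = 0.98), and Csf1r rises with Fn1 in both groups (r = 0.89) with most ozone mice at higher Csf1r for the same Fn1.

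The genes whose values were most like each marker across the 12 mice, after the same means were removed, are given as a description with no test. For Ly6c2, Il2rb had r = 0.98; it encodes a chain of the interleukin-2 and interleukin-15 receptors of T and natural killer cells. For Cx3cr1 they were Ptpn13 (r = 0.97) and Pou2f2 (r = 0.95), and for Plac8 Pou2f2 (r = 0.99) and Adamts14 (r = 0.98). For F13a1 they were Ifi211 and Ms4a4a, both with r = 0.97. For Maf they were Spib (r = 0.91) and Lama2 (r = 0.90), and for Ccr2 Birc3 (r = 0.95) and Gprasp2 (r = 0.91). Csf1r was most like Ccdc136 (r = 0.94) and Ciita (r = 0.92), the latter the master regulator of MHC class II genes. Fn1 was most like Csf2rb2 (r = 0.97), which encodes the mouse interleukin-3-specific receptor chain, and Rph3a (r = 0.94). Vcan was most like 1810044D09Rik and Gm46209, both with r = 0.93.

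Promoter sequence was examined for motifs of myeloid transcription factors. RefSeq entries (GRCm38.p6) were found for 6 of the 9 genes, and the 250 bases before the most upstream listed start were searched on both strands for 3 motifs. GAGGAA, which reads TTCCTC on the opposite strand and is the core bound by the myeloid factor PU.1, was present in Plac8, Ly6c2 and F13a1 and not in Ccr2, Cx3cr1 or Vcan, and in 23.4% of 32544 promoters of the same length. TTGCNNAA, a C/EBP-type motif, and TGANTCA, the core of AP-1 and MAF sites, were in none of the 6, and in 9.58% and 6.73% of all promoters. The 3 promoters with a match are shown; capitals mark GAGGAA or its complement, and all 3 are written on the minus strand.
Plac8 chr5:100572206-100572455: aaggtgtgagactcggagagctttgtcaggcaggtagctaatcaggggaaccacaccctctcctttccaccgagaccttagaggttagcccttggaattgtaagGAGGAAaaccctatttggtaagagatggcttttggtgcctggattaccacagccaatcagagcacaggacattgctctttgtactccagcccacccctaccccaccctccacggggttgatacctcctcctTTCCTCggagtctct
Ly6c2 chr15:75111972-75112221: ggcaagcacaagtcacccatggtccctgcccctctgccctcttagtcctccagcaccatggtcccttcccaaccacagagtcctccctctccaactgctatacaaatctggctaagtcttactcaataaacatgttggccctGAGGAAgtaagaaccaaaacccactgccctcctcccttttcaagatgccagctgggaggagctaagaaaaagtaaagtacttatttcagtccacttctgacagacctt
F13a1 chr13:37050245-37050494: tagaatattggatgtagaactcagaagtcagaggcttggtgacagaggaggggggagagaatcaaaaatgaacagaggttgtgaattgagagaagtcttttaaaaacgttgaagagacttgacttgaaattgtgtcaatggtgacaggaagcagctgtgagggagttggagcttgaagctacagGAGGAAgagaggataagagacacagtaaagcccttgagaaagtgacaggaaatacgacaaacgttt
Plac8 had 2 matches, 1 in each orientation, and Ly6c2 and F13a1 had 1 each.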

How the data were processed

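RNA was measured in 6 filtered-air and 6 ozone mice. Per the labels' protocols, libraries came from polyA RNA with a stranded kit and paired-end sequencing. The submitters' processing notes name cutadapt, STAR 2.7.7a, Salmon 1.5.2, DESeq2 1.26.0, limma 3.42.2, R 3.6.0 and the build mm10, with no role or order. Per the name of the deposited table, its values are variance-stabilized and batch-corrected by the authors, on a log2 scale. All 12 columns matched 1 mouse each. The filtered-air mean was 0 in every gene within 2.4e-08 and the batch means differed by at most 5.3e-08, so abundance was not kept; 19.7% to 23.5% of a mouse's values over 25444 varying genes lay at the lowest shared value.

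Genes above that value in at least 6 mice were kept (19633) and tested with limma 3.58.1 in R 4.3.3, without a mean-variance trend, with batch as a covariate and an adjusted p threshold of 0.05. The limma fit was tested on simulated data. Figures used matplotlib 3.10.9. Each sample is a different mouse, per the identifiers in the labels. The genes named are the 9 markers, the listed genes past the threshold, and for each marker the 2 genes most correlated with it. The 9 markers and the lists were chosen with earlier results of these data known. Window sharing used the longest-coding GENCODE M21 transcript of each gene. Sequence of Csf1r and the single values of some listed or correlated genes are not reported here. Alternatives were other filters, variance models, normalization, covariates, batches alone and leaving out each mouse; correlations without filtered-air mouse 4 were added after seeing the data.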

Additional observations from a re-analysis of the deposited data

How the results depend on the processing

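The count of marker genes called by limma, 1 with all mice, stayed at 1 in each fit without 1 mouse and under other filters, a variance trend, a robust fit, no batch term and an RNA integrity covariate. It was 0 after quantile normalization, in sort batch 1 alone and in sort batch 2 alone, with 1 gene at an unadjusted p under 0.05 in each; single batches hold 3 mice per group, and for quantile normalization the cause was not tested. Over all genes limma called 834, and 171 after quantile normalization, 90 in batch 1 alone and 0 in batch 2 alone (1800 at an unadjusted p under 0.05); without 1 mouse it called 538 (without filtered-air mouse 1) to 751. The median marker difference, 0.0042, was -0.15 in batch 2 alone, and ran from -0.054 (without ozone mouse 4) to 0.046 (without filtered-air mouse 4). Directions reversed in batch 1 alone for Maf (-0.0097) and F13a1 (0.038), and in batch 2 alone for Cx3cr1 (-0.081) and Fn1 (-0.24). Without 1 mouse the differences ran from -0.025 to 0.11 for Cx3cr1, -0.038 to 0.046 for Maf, -0.077 to 0.14 for Fn1 and -0.14 to 0.043 for F13a1; none of these 4 genes was called with all mice. Ccr2 (0.072 to 0.17), Csf1r (0.31 to 0.44), Ly6c2, Vcan and Plac8 kept their direction in those 12 fits. Replicate numbers were not treated as pairs, since same-numbered mice are different animals and the labels state no shared litter or day; their deviations correlated above 0.1 in 4 of 6 pairs, and 6 of 12 mice correlated best with their own number, a hint from the data and not from the design. With the replicate block limma called 853 genes and 1 marker, Csf1r (adjusted p = 0.00355). Among the other 11 genes called from the lists, Itga4, Tlr2, S100a4, Car4, Ear1, Krt79 and Chil3 were not called after quantile normalization (adjusted p 0.117 to 0.302), and S100a4, Car4, Ear1, Spp1 and Cxcr2 were not called with a variance trend (0.0573 to 0.159). Without the filter S100a4, Car4 and Ear1 were not called (0.0522 to 0.0808), nor were S100a4 and Car4 in the robust fit (0.085 and 0.0542). Spp1 in batch 1 (0.00498) was the only one of the 11 called in a single batch. The depth of each library is unknown, so counting error could not be given.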

Other observations

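Marco and Csf3r were called in limma only without filtered-air mouse 4, and both were chosen after their values were seen. Of the 12 listed genes called with all mice, none lost its call without that mouse. Marco, a scavenger receptor of resident alveolar macrophages, had its lowest value of all 12 mice, -0.95, in filtered-air mouse 4. Its difference was 0.58 (limma, adjusted p = 0.108) with all mice and 0.37 (limma, adjusted p = 0.0396) without it. Csf3r, the receptor for the granulocyte growth factor G-CSF, was lowest of the filtered-air group in that mouse, at -0.28. Its difference was -0.27 (limma, adjusted p = 0.0837) with all mice and -0.33 (limma, adjusted p = 0.019) without it.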
